A study of Caenorhabditis elegans with 2 samples.

Results

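The small heat shock genes and the genes of the DnaJ (J-domain) family of Caenorhabditis elegans were examined for regions found by chromatin immunoprecipitation followed by sequencing (ChIP-seq) of NHR-12, a nuclear hormone receptor. The members were chosen by name: every protein-coding gene whose symbol was hsp- or dnj- followed by a digit, apart from hsp-1, hsp-3, hsp-4, hsp-6 and hsp-70, the 5 genes of that naming that encode HSP70-type proteins. This gave 46 of 19973 nuclear protein-coding genes, of which 13 encode small heat shock proteins, 29 DnaJ proteins and 4 larger heat shock proteins. The larger proteins are HSP-60, HSP-75, HSP-90 and HSP-110, which the naming rule keeps although they belong to neither family, and they are given separately throughout. The naming rule uses no measured value, but it was written with earlier results of these data known.

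The animals were whole first-stage (L1) larvae, mixed in sex and taken as 1 group, of strain OP318. This strain carries the unc-119(ed3) mutation on chromosome III and the integrated transgene wgIs318, which adds NHR-12 with GFP and FLAG at its C terminus. There were 2 biological replicates, and the labels do not say whether these were grown separately or which cells of the larva made the tagged protein. Because whole larvae were used, no region can be assigned to a tissue, and no second strain, stage or treatment (heat included) was part of the series.

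Small heat shock proteins hold unfolding proteins and keep them from aggregating, without using ATP. DnaJ proteins bring such clients to HSP70 and switch on its ATPase through the J domain, and some of them bind zinc through a repeated cysteine motif. In worms, as in other animals, many chaperone genes are induced by the heat shock factor HSF-1 through inverted repeats of the letters GAA, while nuclear hormone receptors typically read half-sites such as AGGTCA.

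Only short motifs and lengths were checked in the proteins, and no family domain was searched for in the heat shock proteins. The tripeptide HPD, the active centre of the J domain, was found in 28 of 29 DnaJ proteins (DNJ-5 was the exception) and in 0 of 17 heat shock proteins, and the small heat shock proteins were 109 to 393 residues long. The zinc-binding repeat was present 3 times each in DNJ-10, DNJ-12 and DNJ-19 and in no other DnaJ protein.

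A gene was counted as having a region where the region's midpoint lay between 500 bp upstream and 200 bp downstream of the gene's 5′ end, called the promoter window here. The authors' lists in genome build ce11 held 164 regions kept by their filter on the irreproducible discovery rate, a measure of how well ranks hold between replicates (the IDR set), 3817 regions called on both replicates jointly, 26878 regions of replicate 1 and 30000 regions of replicate 2. The last 3 hold background regions too, per the deposited description of file types. The IDR set was the 164 joint regions of highest signal. Being in it does not by itself show that a region's rank held between replicates. Mitochondrial regions numbered 18 in the IDR set, 19 in the joint list, 21 in replicate 1 and 0 in replicate 2. Ranks within each list count them. Signal is the score of the authors' peak caller, read only within 1 list. Its median was 51.4 in the IDR set, 19.7 in the joint list, 8.03 in the replicate 1 list and 6.96 in the replicate 2 list, and since the lists hold no read counts the depth is unknown.

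Peaks of the IDR set stood at 2 DnaJ genes, and joint regions at 7 DnaJ and 2 large heat shock genes and at none of the 13 small heat shock genes among the members. In the IDR set 2 of 46 members had a peak in the promoter window, dnj-19 and dnj-9, a share of 4.35% (95% interval 0.531 to 14.8%) beside 0.511% of all protein-coding genes (102 genes). In the joint list 9 members had a region, 19.6% (9.36 to 33.9%), beside 4.98% of all genes (994 genes). These were 7 DnaJ genes (dnj-19, dnj-9, dnj-13, dnj-12, dnj-29, dnj-26 and dnj-2) and 2 large heat shock genes (hsp-110 and hsp-75), while 0 of the 13 small heat shock genes chosen had a joint region. The authors' −log10 q-value, lower where a region is less certain, was 1.05 to 1.08 at dnj-19, dnj-9, dnj-12 and dnj-13. At hsp-110 it was 0.60, at dnj-29 0.29, at dnj-26 0.09, and at hsp-75 and dnj-2 0.03. Its highest value in the joint list, and in the IDR set, was 1.08. Intervals are exact (Clopper-Pearson), cover counting error only, and treat the genes as independent, which neighbouring members that share a promoter are not.

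Sequences are shown for 7 places and not for the joint regions of the other members, dnj-12 among them. The 7 sequences are those at the midpoints of dnj-19, dnj-9, dnj-13 and hsp-110 and at the peaks just outside the windows of hsp-60 and hsp-90, and that of the gap between hsp-16.2 and hsp-16.41, where no region was listed. They run 5′ to 3′ on the strand of the gene named, in ce11 letters of the reference WBcel235. Capitals mark matches on either strand to the heat shock element cores GAANNTTC and TTCNNGAA, to 3 adjoining units of that element, or to the letters TATAAA. None of these sequences held the half-sites AGGTCA or AAGTCA or the GATA letters TGATAA.
dnj-19, chrV:5505094-5505252, minus strand: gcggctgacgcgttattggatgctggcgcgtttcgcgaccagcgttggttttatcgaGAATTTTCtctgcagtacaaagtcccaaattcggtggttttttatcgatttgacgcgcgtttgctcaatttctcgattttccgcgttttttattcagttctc
dnj-9, chrII:4851724-4851924, plus strand: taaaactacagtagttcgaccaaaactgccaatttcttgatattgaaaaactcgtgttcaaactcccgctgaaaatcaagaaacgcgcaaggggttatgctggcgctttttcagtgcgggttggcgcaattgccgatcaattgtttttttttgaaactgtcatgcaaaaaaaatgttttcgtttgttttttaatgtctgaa
dnj-13, chrII:11545391-11545591, plus strand: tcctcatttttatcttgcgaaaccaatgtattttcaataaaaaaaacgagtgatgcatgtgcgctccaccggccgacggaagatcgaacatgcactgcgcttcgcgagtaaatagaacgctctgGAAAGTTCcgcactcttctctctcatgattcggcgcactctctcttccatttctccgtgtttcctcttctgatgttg
hsp-110, chrIII:8447044-8447244, minus strand: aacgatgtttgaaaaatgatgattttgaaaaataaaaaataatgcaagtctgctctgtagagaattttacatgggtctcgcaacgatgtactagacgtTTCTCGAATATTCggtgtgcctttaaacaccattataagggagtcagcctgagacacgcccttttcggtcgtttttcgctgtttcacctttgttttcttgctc
hsp-60, chrIII:1619048-1619248, plus strand: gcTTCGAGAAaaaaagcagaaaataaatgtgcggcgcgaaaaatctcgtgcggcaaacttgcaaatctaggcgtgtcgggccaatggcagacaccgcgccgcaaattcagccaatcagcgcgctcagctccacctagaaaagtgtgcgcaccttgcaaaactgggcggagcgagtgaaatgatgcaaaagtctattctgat
hsp-90, chrV:14685680-14685880, plus strand: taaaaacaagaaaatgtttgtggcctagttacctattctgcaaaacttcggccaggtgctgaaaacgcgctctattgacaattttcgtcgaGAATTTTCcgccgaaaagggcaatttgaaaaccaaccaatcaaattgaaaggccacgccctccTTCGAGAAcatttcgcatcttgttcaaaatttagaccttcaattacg
hsp-16.2 and hsp-16.41 gap, chrV:1804958-1805177, plus strand (that of hsp-16.41): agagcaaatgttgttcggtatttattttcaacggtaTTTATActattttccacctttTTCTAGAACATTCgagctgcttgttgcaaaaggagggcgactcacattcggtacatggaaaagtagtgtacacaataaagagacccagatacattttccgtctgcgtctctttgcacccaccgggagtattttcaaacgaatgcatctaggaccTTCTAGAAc

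The IDR peak at dnj-19 lay at chrV:5505006-5505381, with its midpoint 337 bp upstream of the 5′ end. DNJ-19 is a zinc-repeat DnaJ protein of the type that works with cytosolic HSP70. The peak had a signal of 46.1 and ranked 101 of 164 in the IDR set. Replicate 1 listed a region 323 bp upstream with a signal of 21.0 (rank 136 of 26878). Replicate 2 listed one 364 bp upstream with a signal of 23.9 (rank 118 of 30000). The midpoints of the 2 replicates' regions thus lay 41 bp apart, and both regions stood high in their list. The midpoint was nearer to another gene: it lay 59 bp from the 5′ end of nhr-47, which encodes a nuclear hormone receptor and runs away from dnj-19 on the other strand, and it also lay over the noncoding RNA gene C24G6.10. The sequence printed above stops where the first exon of nhr-47 begins, and holds 1 match to GAANNTTC.

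The IDR peak at dnj-9 was the one in the set that lay in the promoter window of a member and of no other protein-coding gene. It covered chrII:4851636-4852011, 232 bp upstream and intergenic, with a signal of 43 and rank 119 of 164. Replicate 1 had a region 217 bp upstream with a signal of 17.3 (rank 355). Replicate 2 had a region 236 bp upstream with a signal of 22.5 (rank 138) and a second, weaker one 34 bp upstream with a signal of 7.96 (rank 10124). The stronger regions of the replicates differed by 19 bp in position. The sequence at the midpoint held none of the 6 motifs searched.

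Just below the limit of the IDR set stood dnj-13 and dnj-12, whose proteins act with HSP70 and HSP-110 in taking apart protein aggregates. The lowest signal in the set was 37.1, and dnj-9 lay above it with 43, dnj-13 below it with 32.9 and dnj-12 below it with 32.4 in the joint list. The joint region of dnj-13 was at chrII:11545303-11545678, 210 bp upstream, inside an intron of dhgd-1 on the other strand and over the noncoding RNA gene F54D5.22, and ranked 218 of 3817. The replicates ranked it far apart: replicate 2 listed a region 207 bp upstream with a signal of 25.3 (rank 96 of 30000), the highest in any member's window in that list, and replicate 1 one 167 bp upstream with a signal of 7.63 (rank 15485 of 26878), below the median of its list. The joint rank of dnj-13 therefore stood beside a high rank in 1 replicate alone. Its midpoint sequence holds 1 match to GAANNTTC.

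For dnj-12, a zinc-repeat DnaJ gene like dnj-19, the replicates were closer. The joint region at chrI:14756622-14756997 lay 94 bp upstream and ranked 224. Replicate 1 had a region 148 bp upstream with a signal of 22.3 (rank 117), the highest in any member's window in that list, and a second one 405 bp upstream with a signal of 10.7 (rank 4844). Replicate 2 had a region 60 bp upstream with a signal of 21.1 (rank 162). The midpoint also lay in the promoter window of mtx-1, a metaxin gene on the other strand whose 5′ end was 398 bp away. Of the 3 zinc-repeat DnaJ genes dnj-10, which encodes a mitochondrial DnaJ protein, had no region in any list.

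**Figure D1:**
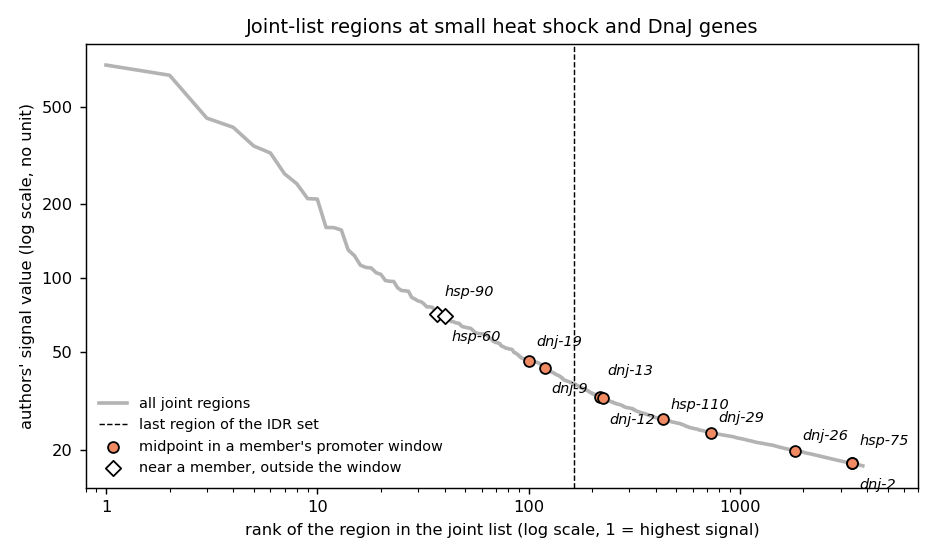
Signal of each region of the joint list (vertical axis, log scale, no unit) against its rank (horizontal axis, log scale); circles are the 9 members with a midpoint in the promoter window, diamonds the IDR peaks near hsp-60 and hsp-90 outside it, and the dashed line the end of the IDR set at rank 164. Among the circles, dnj-19 (46.1) and dnj-9 (43) lie left of the line, dnj-13 and dnj-12 just right of it, and hsp-75 and dnj-2 near the end of the list.

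The other DnaJ genes of the joint list had lower signals. The region of dnj-29, which encodes a SEC63-like protein of the endoplasmic reticulum translocon, was at chrI:14113217-14113592, 297 bp upstream, with a signal of 23.5 and rank 732. The replicates listed it 301 and 297 bp upstream, with a signal of 8.68 (rank 10554) in replicate 1 and 14.1 (rank 740) in replicate 2. That midpoint was nearer to ndua-2, a gene of respiratory complex I, whose 5′ end was 231 bp away. A further joint region 932 bp upstream of dnj-29, with a signal of 23.1, lay in the window of fld-1.

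The region of dnj-26 was at chrIV:12252635-12253010, 144 bp upstream, with a joint signal of 19.8 (rank 1833). The replicates placed theirs 179 and 178 bp upstream, with a signal of 9.08 (rank 9112) in replicate 1 and of 5.48 (rank 26135) in replicate 2, so the position matched to 1 bp while the rank in replicate 2 was near the end of the list. The region of dnj-2 was at chrIV:11313996-11314371, 204 bp upstream in a UTR of B0035.3, with a joint signal of 17.6 (rank 3405). Its replicate regions did not match in position, at 33 bp upstream with a signal of 8.03 in replicate 1 (rank 13410) and 240 bp upstream with a signal of 10.8 in replicate 2 (rank 2950).

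Among the large heat shock genes, hsp-110, which encodes a nucleotide exchange factor of HSP70, had a joint region at chrIII:8446956-8447331, 235 bp upstream, with a signal of 26.6 and rank 434. Replicate 1 had a region 291 bp upstream with a signal of 12.8 (rank 1956), and replicate 2 one 232 bp upstream with a signal of 15.9 (rank 427). The midpoint was 209 bp from the 5′ end of rpn-3, a proteasome subunit gene, and so nearer to that gene than to hsp-110. Its sequence holds a run of 3 heat shock units, in capitals above. For hsp-75, which encodes the mitochondrial HSP90, the joint region at chrIII:7226321-7226696 lay 198 bp downstream of the 5′ end in a coding exon and had a signal of 17.6 (rank 3400). The replicate regions of hsp-75 were apart, at 30 bp downstream with a signal of 10.2 in replicate 1 (rank 5754) and 198 bp downstream with a signal of 7.86 in replicate 2 (rank 10553).

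Of the 9 joint midpoints 8 lay upstream, between 94 and 337 bp from the 5′ end, and 6 were intergenic. In 4 cases (dnj-19, dnj-12, hsp-110 and dnj-29) the midpoint was also in the promoter window of another gene, and in 3 of these that gene's 5′ end was the nearer one. The window reaches 500 bp upstream but only 200 bp downstream. None of these counts was set beside the same count over all genes with a joint region. The median signal of the strongest joint region was 26.6 over the 9 members and 21.2 over the 994 genes with one, and the median distance was 210 bp upstream for members and 190 bp for all genes. In the IDR set the medians were 44.5 for the 2 members and 46.3 for the 102 genes.

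**Figure D2:**
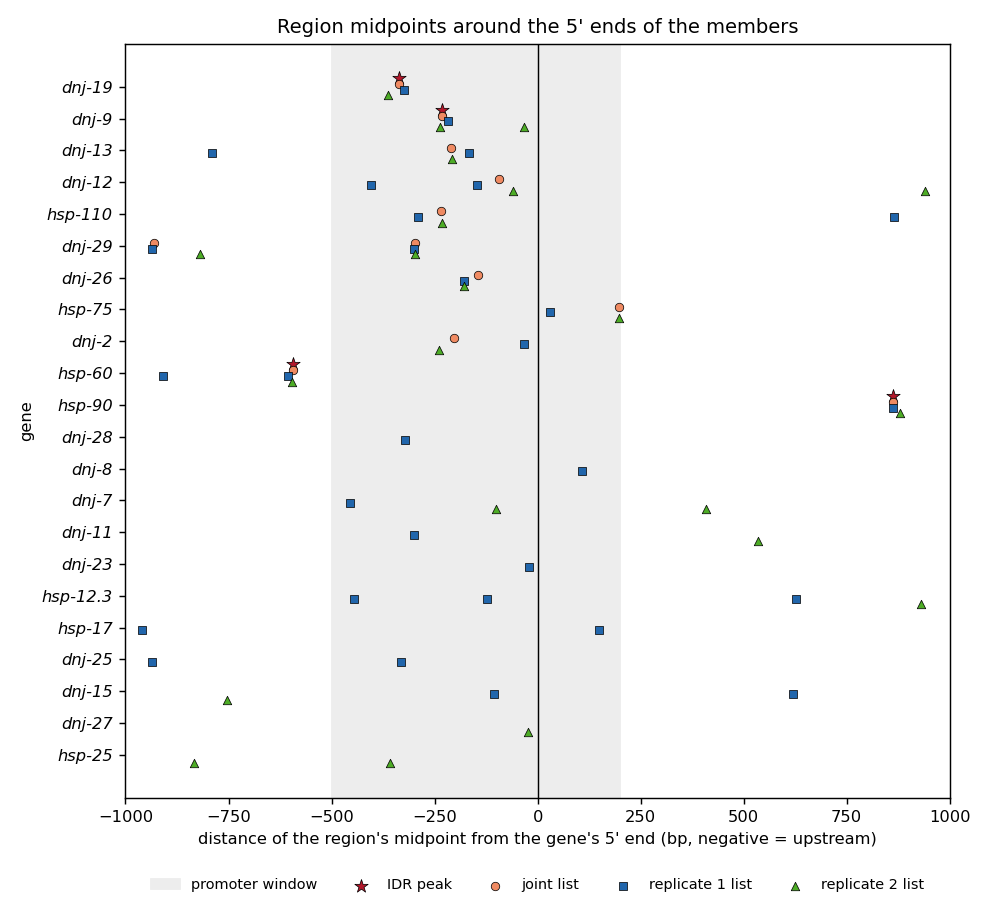
Distance of each region's midpoint from the 5′ end of the gene (horizontal axis, bp, negative upstream) for the 20 members with a region in the promoter window (grey band) and for hsp-60 and hsp-90; stars are IDR peaks, circles joint regions, squares replicate 1 and triangles replicate 2. At dnj-19, dnj-9, dnj-29 and dnj-26 the replicates' symbols nearly coincide, whereas at dnj-7, hsp-75 and dnj-2 they lie apart.

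The 2 joint regions of highest signal within 1000 bp of any member's 5′ end lay outside the promoter windows, near hsp-60 and hsp-90. At hsp-60, the gene of the mitochondrial chaperonin, an IDR peak at chrIII:1618960-1619335 had a signal of 70.2 (rank 40 of 164) and lay 594 bp upstream. Replicate 1 had a region 605 bp upstream with a signal of 23.9 (rank 90), and replicate 2 one 596 bp upstream with a signal of 44.6 (rank 19). The peak was in the window of Y22D7AL.10, whose 5′ end was 219 bp away. It thus ranked above those of dnj-19 and dnj-9 in the joint list and in each replicate list, but nearer to another gene.

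At hsp-90, which encodes the cytosolic HSP90, an IDR peak at chrV:14685592-14685967 had a signal of 71.3 (rank 37). This gene was named after its values were seen. The peak lay in an intron, 862 bp downstream of the 5′ end of the gene as annotated and 380 bp upstream of the 5′ end of a shorter transcript, C47E8.5.1. Replicate 1 had a region there with a signal of 36.2 (rank 40) and replicate 2 one with a signal of 33.1 (rank 47). The 5′ end of C47E8.4, 295 bp away, was the nearest, and the peak was in its window. Neither peak is counted for hsp-60 or hsp-90 in the shares given here; with the 5′ end of any transcript allowed, hsp-90 is counted, and with a window from 1000 bp upstream, hsp-60 is.

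In the replicate lists, which are long and hold background, the members' share was above that of all genes in replicate 1 and near it in replicate 2. In replicate 1, 18 of 46 members had a region (39.1%, 25.1 to 54.6%), beside 21.4% of all protein-coding genes. In replicate 2, 12 members did (26.1%, 14.3 to 41.1%), beside 24.8% of all genes, a share near the background. A region of either replicate was listed for 20 members (43.5%), beside 38.0% of all genes.

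Regions of both replicates were in the window of 10 members (21.7%, 10.9 to 36.4%), beside 8.16% of all genes. In 7 of them (15.2%, 6.34 to 28.9%), beside 4.34% of all genes, the midpoints matched within 100 bp: dnj-19, dnj-12, dnj-9, hsp-110, dnj-29, dnj-13 and dnj-26, with 1 to 88 bp between replicates. The other 3 were hsp-75, dnj-2 and dnj-7, whose regions lay 454 bp upstream in replicate 1 (signal 6.88) and 101 bp upstream in replicate 2 (signal 8.62). When the IDR set was replaced by the 164 strongest regions of 1 replicate, replicate 1 gave 2 members (dnj-12 and dnj-19), beside 0.416% of all genes, and replicate 2 gave 4 (dnj-12, dnj-13, dnj-19 and dnj-9), beside 0.521%. So dnj-19 and dnj-12 were among the strongest regions in each replicate, dnj-9 and dnj-13 in replicate 2 only.

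**Figure D3:**
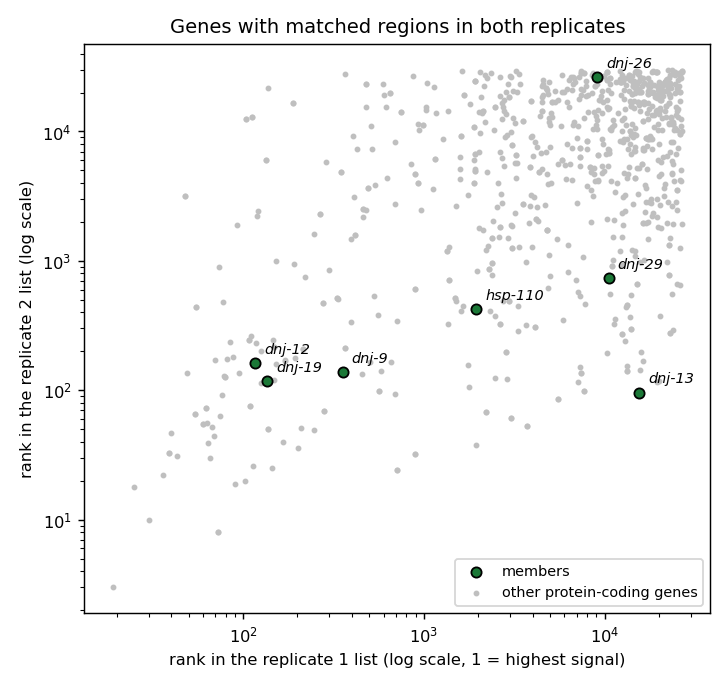
Rank of the matched region in replicate 1 (horizontal axis, log scale) against its rank in replicate 2 (vertical axis, log scale; rank 1 is the highest signal), for the 7 members (green) and other protein-coding genes (grey) with midpoints matched within 100 bp. The points of dnj-12, dnj-19 and dnj-9 lie at ranks 117 to 355 on both axes. That of dnj-13 is at rank 15485 in replicate 1 and rank 96 in replicate 2. That of dnj-26 is at rank 9112 in replicate 1 and at rank 26135, near the end of the list, in replicate 2.

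Regions in 1 replicate alone were mostly weak. For dnj-28, replicate 1 listed a region 322 bp upstream with a signal of 14.1 (rank 1143), shared with supr-1, and replicate 2 listed none in the window. The remaining regions of replicate 1 alone, at dnj-8, dnj-11, dnj-23, dnj-25, dnj-15, hsp-12.3 and hsp-17, had signals between 6.54 and 9.73, taking the strongest at each gene. A second replicate 1 region at hsp-12.3, 446 bp upstream, had a signal of 6.25 (rank 24746). Those of replicate 2 alone were at dnj-27, the gene of a DnaJ protein of the endoplasmic reticulum, with a signal of 5.67, and at hsp-25, with 5.20. All 11 members with a replicate region and no joint region include these 10 and dnj-7. The median signal in replicate 1 was 8.53 for the 18 members and 8.38 for all genes with a region, and in replicate 2 12.5 for the 12 members and 7.33 for all genes.

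By family, the DnaJ genes had a joint region in 7 of 29 cases (24.1%, 10.3 to 43.5%), beside 4.98% of all genes. A replicate 1 region was listed for 14 of them (48.3%, 29.4 to 67.5%), beside 21.4%, and a replicate 2 region for 9 (31.0%, 15.3 to 50.8%), a share near the 24.8% of all genes. Without the zinc-repeat genes 5 of 26 had a joint region (19.2%). A region in any list was present for 15 of 29 DnaJ genes (51.7%), beside 38.1% of all genes. In no list were 14 DnaJ genes: dnj-1, dnj-3, dnj-4, dnj-5, dnj-10, dnj-14, dnj-16, dnj-17, dnj-18, dnj-20, dnj-21, dnj-22, dnj-24 and dnj-30. They include dnj-14, the gene of cysteine string protein at synapses, and dnj-21, whose protein is part of the motor that imports proteins into mitochondria. Of the large heat shock genes 2 of 4 had a joint region.

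**Figure D4:**
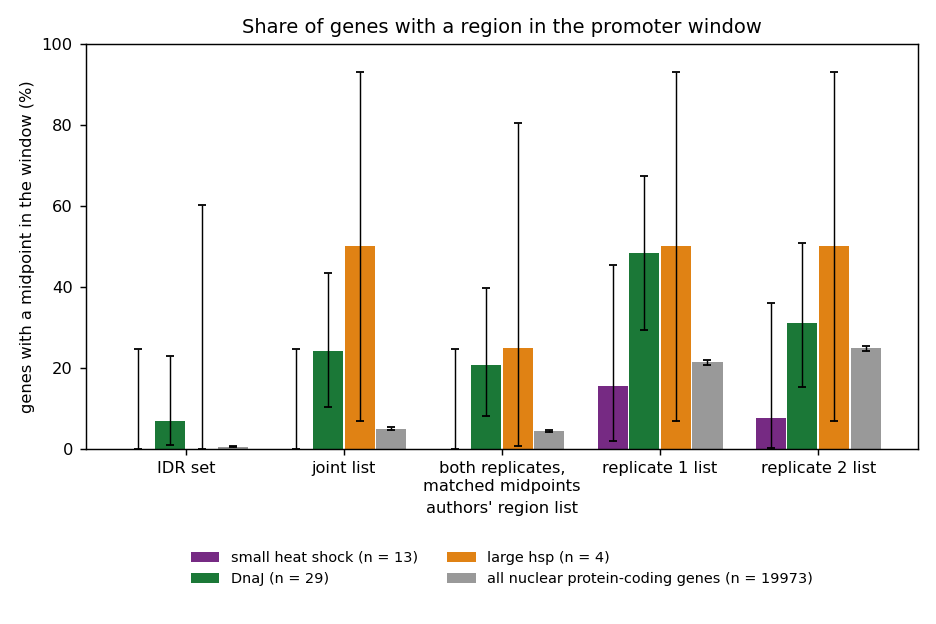
Share of genes (vertical axis, %) with a midpoint in the promoter window in each list, for small heat shock genes (13), DnaJ genes (29), large heat shock genes (4) and all nuclear protein-coding genes (19973); bars are shares and lines exact 95% binomial intervals. Small heat shock genes are at 0 in the IDR set, the joint list and the matched regions, DnaJ genes reach 24.1% in the joint list, and all genes are at 4.98% there.

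The 13 small heat shock genes among the members had no joint region, and in the replicate lists their shares were below those of all genes with wide intervals. The small heat shock gene sip-1, which the naming rule leaves out, is given with the other chaperone genes below. In replicate 1, 2 of 13 had a region (15.4%, 1.92 to 45.4%), beside 21.4% of all genes: hsp-12.3, 123 bp upstream with a signal of 6.86 (rank 20216), and hsp-17, 150 bp downstream with a signal of 6.75 (rank 21006). In replicate 2 it was 1 of 13 (7.69%, 0.195 to 36.0%), beside 24.8% of all genes: hsp-25, 359 bp upstream with a signal of 5.20 (rank 28863). With either replicate the count was 3 of 13 (23.1%, 5.04 to 53.8%), beside 38.0%, and all of these regions were below the median signal of their list. The other 10, hsp-12.1, hsp-12.2, hsp-12.6, hsp-43 and the 6 hsp-16 genes, were in no list. For 0 of 13 genes the interval allows a share of up to 24.7%, so that the difference from the 4.98% of all genes, or from DnaJ genes, is not resolved at this number of genes and was not tested.

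The 6 hsp-16 genes, the classical heat-induced genes of the worm, stand in 3 pairs that share the stretch between them. The gap was 220 bp between hsp-16.2 and hsp-16.41, 348 bp between hsp-16.1 and hsp-16.48, and 310 bp between hsp-16.11 and hsp-16.49. The windows of hsp-16.1, hsp-16.11, hsp-16.48 and hsp-16.49 consist wholly of repeated sequence: 652 of 652 words of 50 bases occurred more than once in the genome. How the authors treated reads that match several places is not given in the sources used here, so a lack of regions at these 4 genes cannot be told apart from a loss of such reads. The windows of hsp-16.2 and hsp-16.41 held no repeated word and no region either. Elsewhere 21.6% of the words of dnj-28 and 1.99% of those of dnj-10 were repeated, and 40 of 46 members had none.

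Letters of the heat shock element were present in many of the members' promoter windows, with and without regions. The core GAANNTTC was in 54.3% of the 46 members' windows and 38.8% of all genes' windows of 701 bp, and TTCNNGAA in 54.3% and 39.1%. Among small heat shock genes each core was in 69.2%, and among DnaJ genes GAANNTTC was in 48.3% and TTCNNGAA in 44.8%. The small heat shock genes with each core include the 6 hsp-16 genes, whose paired windows overlap, so shared stretches are counted more than once. Runs of 3 units (either core extended by another unit after any pair of bases, a pattern added after the data were seen) were in the windows of 10 members (21.7%) and 4.44% of all genes. Of these 10, 6 were the hsp-16 genes, which stand in pairs over the same stretch and had no region, and 2 were hsp-90 and hsp-110. Among DnaJ genes 2 of 29 had such a run (6.90%), dnj-12 and dnj-13, a share near that of all genes.

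At the midpoints of the regions themselves, in 201 bp, GAANNTTC was at 4 of the 9 joint regions of members (dnj-19, dnj-13, dnj-12 and hsp-110) and TTCNNGAA at 2 (dnj-12 and hsp-110). Over the 3798 nuclear joint regions these shares were 14.4% and 14.1%, and over the 146 nuclear IDR peaks 10.3% and 8.22%. The half-sites AGGTCA and AAGTCA were at 0 of the 9 members' midpoints, beside 4.34% and 8.03% of joint regions. In the whole windows AGGTCA was in 8.70% of members and 16.8% of all genes, and AAGTCA in 28.3% and 29.6%. TATAAA was in 78.3% of members' windows, including 13 of 13 small heat shock genes, and in 62.7% of all, and TGATAA in 56.5% and 53.8%. A match is a description of letters and not a binding site. The GC content of the 9 midpoint sequences ran between 23.4% at dnj-26 and 48.8% at dnj-19, beside medians of 33.3% in the joint list and 44.3% in the IDR set.

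Many members had another gene close to their 5′ end. For 22 of 46 members (47.8%), beside 21.3% of all genes, the nearest protein-coding gene on the 5′ side lay within 1000 bp on the opposite strand. Of these 22, 5 had a joint region (22.7%), beside 8.42% of all genes so placed. The 22 include the hsp-16 genes, whose neighbour is in each case another hsp-16 gene, so each stretch they share is counted at both genes. With the nearest such gene within 1000 bp on the same strand a joint region was at 3 of 12 members (25%), beside 4.54%. With no such gene within 1000 bp it was at 1 of 12 (8.33%), beside 3.73%. By chromosome, a joint region was at 2 of 8 members on I, beside 6.71% of all genes there, 2 of 6 on II (4.87%), 2 of 9 on III (6.33%), 2 of 7 on IV (5%), 1 of 12 on V (4.08%) and 0 of 4 on X (3.59%). The part of gene spacing or of position in the members' share was not tested.

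Other chaperone genes, taken from a list of 34 that includes the HSP70 genes left out above, had regions as well. In the IDR set 2 of 34 had a peak (5.88%), beside 0.511% of all genes, and in the joint list 13 (38.2%), beside 4.98%. The replicate 1 list held 16 of them (47.1%), beside 21.4% of all genes, and the replicate 2 list 20 (58.8%), beside 24.8%. The IDR peaks were at cct-8 and cct-1, which encode parts of the chaperonin of the cytosol, and each also lay in another gene's window, that of cct-8 in the window of Y55F3AR.2 and that of cct-1 in the window of mig-5. The HSP70 genes hsp-3, of the endoplasmic reticulum, and hsp-1, of the cytosol, had joint signals of 34.2 (rank 196) and 28.8 (rank 321), in no other gene's window.

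The cochaperone genes sti-1, bag-1 and unc-23 had joint signals of 29.7, 26.6 and 22.6, and unc-45, the gene of a myosin chaperone, 17.9, also in no other window. The region of pph-5, the gene of a protein phosphatase that works with HSP90, had a signal of 32.3 and was shared with Y39B6A.3. Those of cct-5 (25.4, shared with F25F2.1) and of the prefoldin genes pfd-1 (26.3, shared with F01G4.6) and pfd-3 (23.7, not shared) complete the joint list with sip-1. This small heat shock gene, which the naming rule leaves out, had a joint region with a signal of 19.2 (rank 2206), shared with sly-1. A region in a replicate list alone was present for ddl-2, hsp-6, hsp-70, chn-1, cct-3, cct-6, pfd-2, pfd-4, pfd-5 and pfd-6. In no list were hsf-1, the gene of the heat shock factor, hsb-1, the gene of its binding protein, ddl-1, hsp-4, stc-1, cdc-37, daf-41, rme-8, cct-2, cct-4 and cct-7.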

How the data were processed

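Region lists of build ce11 were used: 1 for each of the 2 replicates, 1 joint list and the IDR set, which was the 164 joint regions of highest signal. Per the deposited descriptions, the first 3 were the input to the IDR step and 1 control file entered the calling. The signal of a region and its −log10 q-value are the authors' deposited values. The −log10 q-value was not used for ranking. The aligner, caller, versions and IDR threshold are not given in the sources used here. The labels name NHR-12 as the antibody's target and do not say whether the tag was the epitope. The ce10 lists were not used here.

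Genes came from the Ensembl release 115 annotation of WBcel235. 4 members share 2 symbols there, and hsp-16.11 and hsp-16.49 were named from RefSeq genes of the same span. Counting used Python 3.11.15, pandas 2.3.3, numpy 2.4.6 and scipy 1.17.1, was tested on simulated regions, and counted a midpoint within 500 bp upstream to 200 bp downstream. Ranks in lists of different length show no change between them. Members and gene lists were chosen with earlier results of these data known, so no test over members was made; shares stand beside those of all nuclear protein-coding genes. The genes named are members with an IDR or joint region, matched replicate regions or the highest replicate signals, and members with a peak just outside the window. Motifs were searched on both strands.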

Additional observations from a re-analysis of the deposited data

How the results depend on the processing

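Counts of members were recomputed with other windows, 5′ ends, thresholds and match distances. With the window cut to 250 bp upstream the count fell to 1 in the IDR set (dnj-19 was lost), beside 0.315% of all genes, 11 in replicate 1 (13.3% of all genes), 6 with both replicates (4.01%) and 4 with matched midpoints (2.52%). In the stronger part of each list, ranked by signal and cut at its middle, it was 0 in the IDR set (0.210% of all genes) and 11 in replicate 1 (11.9%). When the IDR set was replaced by the strongest regions of a single replicate it was between 2 and 4 members. It was 4 without replicate 1 (0.521% of all genes) and 2 without replicate 2 (0.416%). The cause of these shifts was not tested, beyond the smaller windows and lists themselves. The joint count was 7 to 11 under all settings run. It was 7 with 250 bp upstream (3.04% of all genes) and 7 in the stronger part of the list (3.12%). With any overlap it was 10 (6.32%), with 1000 bp upstream 10 (7.02%), and with the 5′ end of any transcript 11 (5.69%). A window from 1000 bp upstream (0.626% of all genes), or any overlap in place of the midpoint (0.571%), added hsp-60 to the IDR count. The 5′ end of any transcript (0.536%) added hsp-90, and each of these changes gave 3 members. Without the 4 large heat shock genes 2 of 42 had an IDR peak and 7 a joint region, beside 0.511% and 4.98% of all genes. No paired analysis was possible because there was 1 group. The lists hold no read counts, so what depth limits is unknown.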
